A study of Mus musculus with 7 samples.

Results

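The genes described here are 46 cell cycle and proliferation genes, found by their symbols in GENCODE vM1 among the 37310 genes of the deposited count table. They comprised 3 proliferation markers, 8 cyclins and kinases of G1, 3 inhibitors of cyclin-dependent kinases (CDKs), 3 transcription factors, 14 genes of S phase and 15 genes of mitosis. All 46 had enough counts to be tested. Expression was measured by RNA sequencing of total RNA from the mammary gland of female C57BL/6 mice at lactation day 1 (L1). The 3 WT libraries came from mice with intact *Tardbp* and a WAP-Cre transgene (*Tardbp* wt/wt + WAP-Cre). The 4 libraries labelled *Tardbp* KO came from *Tardbp* fl/fl + WAP-Cre mice, in which Cre removes exons 2 and 3 of the gene for the RNA-binding protein TDP-43. Both genotypes thus carry Cre, driven by the promoter of the whey acidic protein, a milk protein of luminal epithelial cells, so other cells of the gland keep *Tardbp*. The age of the mice was not given in the sources used here.

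Cells that divide copy their DNA in S phase and separate the copies in mitosis. D-type cyclins with CDK4 or CDK6 start the process in G1 by phosphorylating RB, which releases E2F factors that switch on genes of DNA replication. Genes of mitosis are switched on later, by the MuvB complex together with B-MYB (encoded by *Mybl2*) and FOXM1, and in resting cells the DREAM complex keeps both groups low. The mammary epithelium proliferates strongly during pregnancy and largely becomes secretory around birth, when milk protein transcripts fill the RNA pool.

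Library totals lay between 36007737 and 42811337 counts, and a member gene had between 31 and 4765 counts in a library, with a median of 320. Levels are CPM, counts brought to a common library size with factors from the trimmed mean of M values (TMM), and WT 1 to WT 3 and KO 1 to KO 4 denote the replicates of each label. *Tardbp* itself stood at 223, 178 and 159 CPM in WT 1 to WT 3 and at 214, 176, 154 and 208 CPM in KO 1 to KO 4, with a log2 fold change of 0.01 (SE 0.182). The counts cover all its exons in the whole gland and did not show the deletion, so directions below are those of the libraries labelled KO. The tissue label fitted the data, as *Csn2*, which encodes beta-casein, reached between 113900 and 152200 CPM in WT libraries and between 30940 and 83400 CPM in KO-labelled libraries. Lymphocyte markers set KO replicates 1 and 3 apart: all 12 were detected, and their summed level was 30.3 to 44.6 CPM in WT libraries and 363, 53.7, 498 and 106 CPM in KO 1 to KO 4. Of 4 markers of germinal centre B cells, which divide fast, *Rgs13*, *Gcet2* and *Mybl1* were highest in KO replicate 3, at 0.328, 1.23 and 2.83 CPM against at most 0.0595, 0.376 and 1.88 CPM in WT. *Rgs13* rested on 16 counts there. KO replicate 1 did not share this for all 3: *Rgs13* was 0 CPM, *Gcet2* 0.929 CPM and *Mybl1* 1.75 CPM, the last within the WT range. *S1pr2* lay between 24.6 and 35.5 CPM in WT and between 34.2 and 47.4 CPM in KO-labelled libraries. According to the labels, WT replicate 2 and KO replicates 3 and 4 were run on flow cell lane 4. Each other library shared its lane with none of the 7, and the labels do not say what else ran there.

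None of the 46 genes passed the test, for which edgeR's quasi-likelihood p, after Benjamini-Hochberg adjustment over 17175 genes, had to be under 0.01 and the log2 fold change beyond 1 in either direction. The same rule called 0 of all genes (0.0%). The study, which used edgeR with these limits and does not name its test, reports differentially expressed genes. Neither edgeR's exact test nor DESeq2's Wald test called a member, while they called 426 (2.48%) and 572 (3.33%) of all genes. An unadjusted p under 0.05 was reached by 4 members (8.7%) against 21.4% of all genes: *Cdt1* and *Mcm7* were higher in KO-labelled libraries, beside 10.7% of all genes in that direction, and *Ccnd1* and *Tyms* were lower, beside 10.7% as well. The 2 groups did not overlap in 3 members (6.52%), *Cdt1*, *Cdkn1b* and *Tyms*, against 18.7% of all genes. Both shares lay below those of all genes. Of the 46 fold changes 21 were positive, and their median was -0.03 on the log2 scale beside 0.05 over all genes. As the tissue was sequenced whole, fewer cells of a type and less RNA per cell cannot be told apart.

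**Figure D1:**
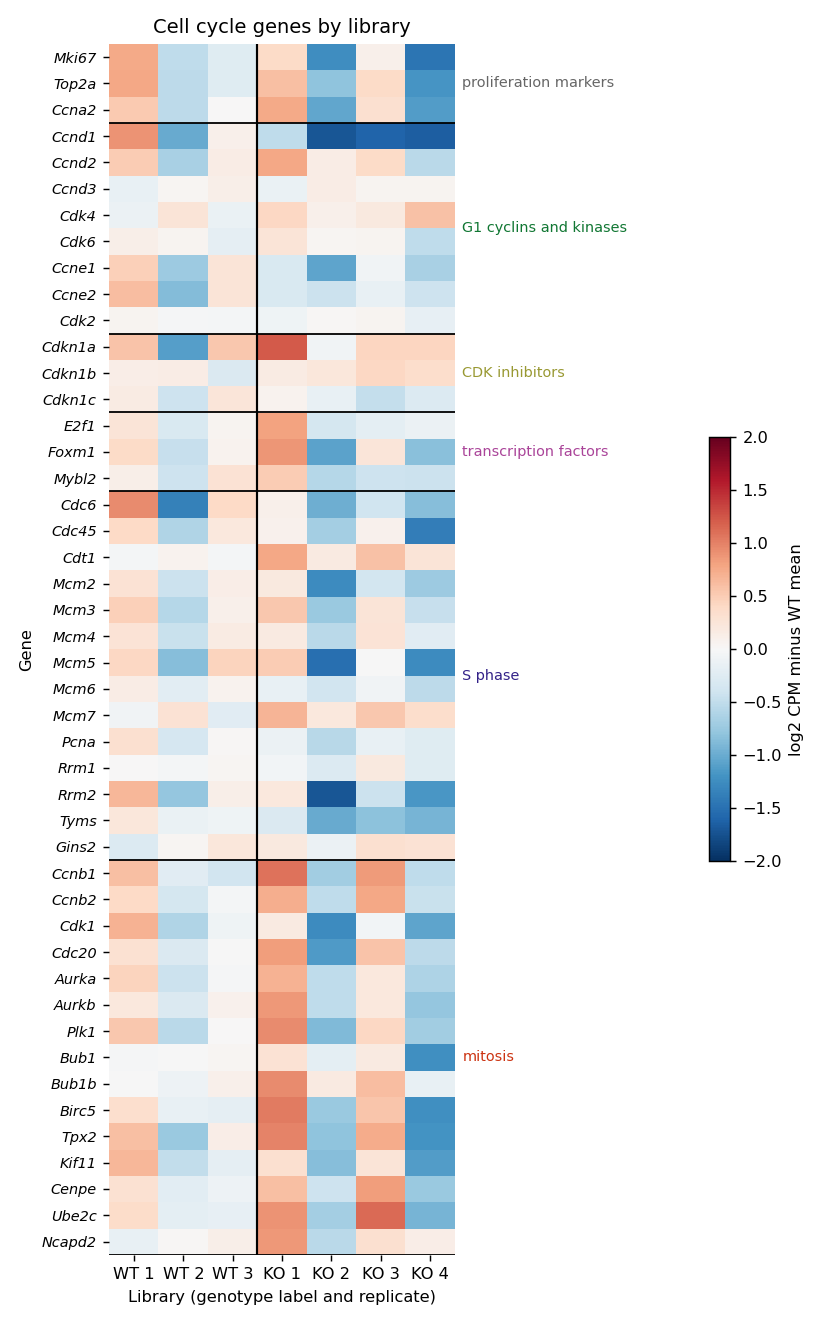
Level of each of the 46 genes (rows, grouped by role) in each library (columns), as log2 CPM minus the mean of the 3 WT libraries, with red above and blue below that mean. KO replicates 1 and 3 are mostly red and KO replicates 2 and 4 mostly blue among the mitosis genes, while *Ccnd1* is blue in all 4.

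**Figure D2:**
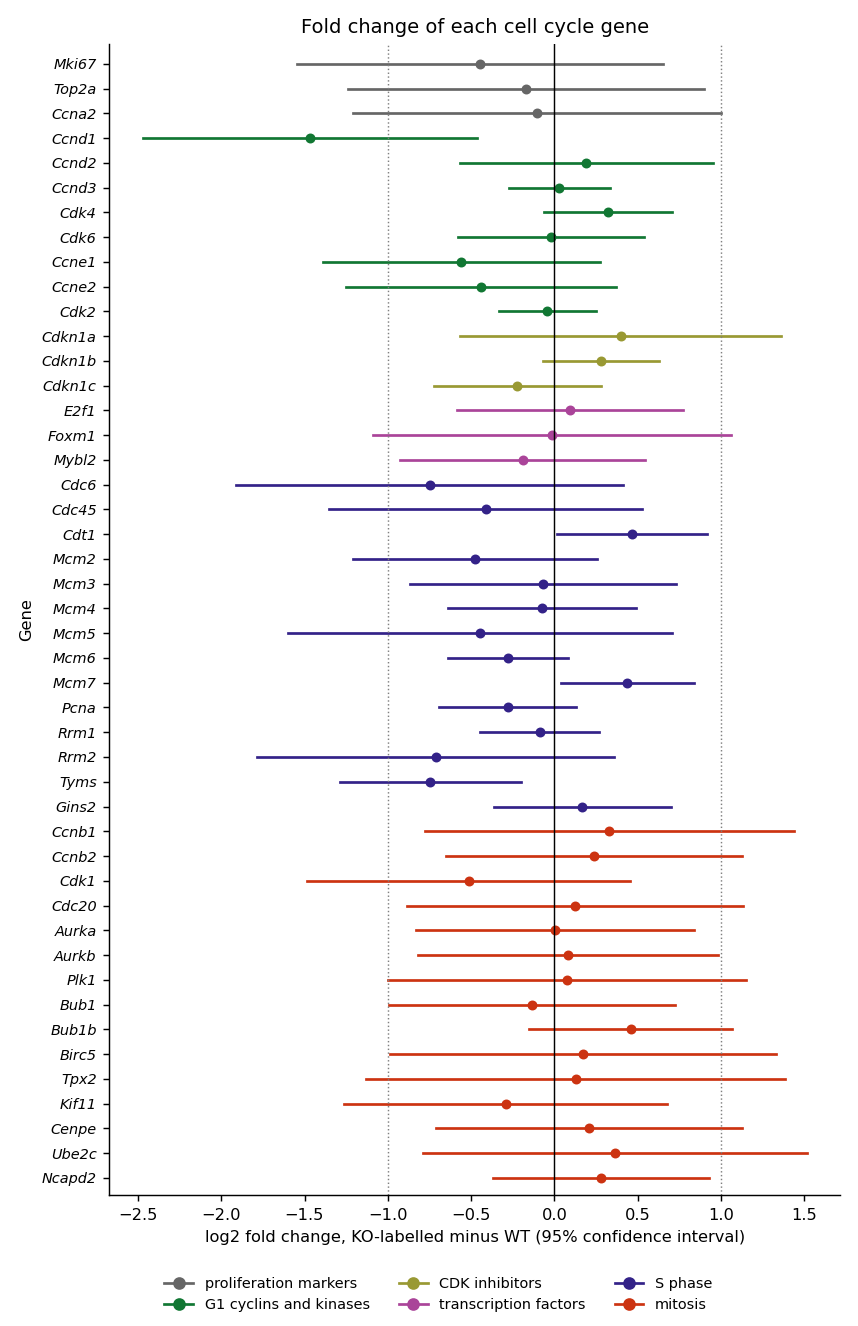
Fold change of each gene between KO-labelled and WT libraries on the log2 scale, with dots for the estimate, lines for its 95% confidence interval and colours for the role. The dotted lines mark the limit of 1 in either direction, and 4 of the 46 intervals leave out 0.

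The proliferation markers were lower on average in KO-labelled libraries, yet varied more within each genotype label than between them, and without WT replicate 1 the log2 fold changes of *Mki67*, *Top2a* and *Ccna2* were 0.030, 0.31 and 0.19. *Mki67* encodes Ki-67, a protein of dividing cells used as the standard histological marker of proliferation (chr7:142881471-142908062, NCBIM37, minus strand). Its level was 55.1, 23 and 27.6 CPM in WT 1 to WT 3 and 42.6, 13.7, 35.2 and 11.8 CPM in KO 1 to KO 4. KO replicates 2 and 4 were below every WT library, and KO replicates 1 and 3 lay between the lowest and the highest WT library. The log2 fold change was -0.45 (95% interval -1.54 to 0.654, adjusted p = 0.645 by edgeR's quasi-likelihood test). *Top2a*, the topoisomerase that untangles replicated DNA, followed the same order of libraries, with 27.6, 11.2 and 13.7 CPM in WT and 24.6, 9.25, 21 and 7.15 CPM in KO 1 to KO 4. *Ccna2*, which encodes the cyclin of S and G2 phase, had 10, 4.86 and 7.04 CPM in WT and 11.8, 3.38, 8.76 and 3.23 CPM in KO 1 to KO 4. In all 3 genes WT replicate 1 was the highest WT library and KO replicates 2 and 4 lay below every WT library. Their fold changes of -0.45, -0.17 and -0.10 on the log2 scale had intervals that reached past 0 on both sides. With lymphocyte markers as a covariate the fold changes were -1.88, -1.44 and -1.59, each with an adjusted p of 0.573 in edgeR's quasi-likelihood test.

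Among the G1 genes, *Ccnd1* showed the largest difference of all 46 members. It encodes cyclin D1, the D-type cyclin required for the growth of mammary alveoli in pregnancy (chr7:152115836-152125774, NCBIM37, minus strand). *Ccnd1* stood at 152, 40.5 and 87.7 CPM in WT 1 to WT 3 and at 57.5, 24.9, 26.7 and 26.1 CPM in KO 1 to KO 4. KO replicates 2, 3 and 4 lay below every WT library, whereas KO replicate 1 was above WT replicate 2, so the groups overlapped. The log2 fold change was -1.47 (SE 0.443, 95% interval -2.47 to -0.464), a level 2.77-fold higher in WT, with an unadjusted p of 0.00917 and an adjusted p of 0.122 in edgeR's quasi-likelihood test. The adjusted p was 0.0218 in edgeR's exact test and 0.0162 in DESeq2, both above the limit of 0.01, and the 2-sided exact permutation p was 0.0857, where 0.0286 is the smallest that 7 libraries allow. Without WT replicate 1 the log2 fold change was -0.92, with an adjusted p of 0.421 from edgeR's quasi-likelihood test. Within lane 4, which holds 1 WT library and was not tested, it was -0.62. Of its exon bases 21.3% lie under Oraov1 on the opposite strand, and reads there were not counted for either gene.

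The other D-type cyclins did not share the lower level of *Ccnd1*. *Ccnd3* stood at 70.9, 80.6 and 85.6 CPM in WT and 71.6, 87.4, 82.1 and 81.6 CPM in KO 1 to KO 4, a log2 fold change of 0.03 with an interval of -0.273 to 0.331. Its libraries were close to each other in both groups. *Ccnd2* had 50.8, 23 and 39.7 CPM in WT and 61.7, 39.8, 46.8 and 24.6 CPM in KO 1 to KO 4, and its groups overlapped. The difference between the fold changes of the 3 cyclins was not tested.

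The kinases that D-type cyclins activate were level or slightly higher. *Cdk4* had 65.1, 84.8 and 64.8 CPM in WT and 94.4, 76.3, 81 and 106 CPM in KO 1 to KO 4, with the highest WT library above KO replicates 2 and 3 (log2 fold change 0.32, interval -0.0622 to 0.706, adjusted p = 0.315 by the quasi-likelihood test). *Cdk6*, the gene of the other kinase that D-type cyclins activate, had a lower level, between 3.28 and 5.57 CPM in all 7 libraries. *Cdk2*, the kinase of cyclin E and cyclin A, was the steadiest member, with 24.5, 23.4 and 23.2 CPM in WT and 22.3, 24, 24.6 and 21.1 CPM in KO 1 to KO 4. The genes of cyclin E were low: *Ccne1* had 4.29, 1.85 and 3.69 CPM in WT and 2.5, 1.47, 2.95 and 1.95 CPM in KO 1 to KO 4, and *Ccne2* lay between 1.37 and 3.87 CPM. Their log2 fold changes of -0.56 and -0.44 had adjusted p-values of 0.422 and 0.525 in edgeR's quasi-likelihood test.

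CDK inhibitors hold cells out of the cycle, and *Cdkn1b*, which encodes p27, was the highest of the 3. *Cdkn1b* stood at 80.3, 81.3 and 59.5 CPM in WT 1 to WT 3 and at 81.4, 85.8, 97.5 and 93.5 CPM in KO 1 to KO 4. Every KO-labelled library was above every WT library, but KO replicate 1 barely exceeded WT replicate 2, and with DESeq2's size factors in place of TMM the groups overlapped. The log2 fold change was 0.28 (interval -0.0682 to 0.63, adjusted p = 0.335 by edgeR's quasi-likelihood test). *Cdkn1a* encodes p21, a target of p53, and was 18.8, 5.84 and 18.2 CPM in WT and 29.4, 12, 16.9 and 17 CPM in KO 1 to KO 4. WT replicate 2 was the lowest library and KO replicate 1 the highest, and the other 5 lay between 11.99 and 18.76 CPM. *Cdkn1c*, the gene of p57, lay between 7.59 and 12.5 CPM in all libraries.

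The transcription factors that drive the programme had mean levels between 0.966 and 3.85 RPKM, which is CPM divided by the exon length in kilobases. *E2f1*, an activator of S phase genes, stood at 13.8, 9.32 and 11.9 CPM in WT and 20.1, 9.04, 10.1 and 10.7 CPM in KO 1 to KO 4. KO replicate 1 was the highest library by far, and the other 3 KO-labelled libraries lay within or just below the WT range. *Foxm1*, an activator of mitosis genes, had 6.81, 3.75 and 5.47 CPM in WT and 9.63, 2.46, 6.14 and 2.91 CPM in KO 1 to KO 4. *Mybl2* had 5.57, 3.84 and 6.24 CPM in WT and 7.25, 3.43, 3.83 and 3.79 CPM in KO 1 to KO 4. The 3 log2 fold changes lay between -0.19 and 0.09, with adjusted p-values of 0.78 or more.

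The 14 S phase genes had a median log2 fold change of -0.28, and 3 of them (*Cdt1*, *Mcm7* and *Gins2*) were higher in KO-labelled libraries. Replication starts where ORC, CDC6 and CDT1 load the MCM helicase on DNA. *Cdt1* was 8.09, 8.7 and 8.12 CPM in WT and 14.2, 9.39, 12.4 and 9.89 CPM in KO 1 to KO 4 (chr8:125091915-125097028, NCBIM37, plus strand). All 4 KO-labelled libraries were above all WT libraries, which themselves differed little. The log2 fold change was 0.47 (SE 0.2, adjusted p = 0.222 by edgeR's quasi-likelihood test, exact permutation p = 0.0857), and it was 0.076 with lymphocyte markers, which are highest in KO replicates 1 and 3, as a covariate. *Cdc6*, the other loader and the lowest of all members per length, went the other way in its mean, with 4.62, 0.923 and 3.15 CPM in WT and 2.57, 1.2, 1.8 and 1.31 CPM in KO 1 to KO 4. WT replicate 2 was the lowest library for *Cdc6* and WT replicate 1 the highest, so the KO-labelled libraries lay inside the WT range.

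The MCM helicase is a ring of 6 different subunits, and the fold changes of their genes lay on both sides of 0. *Mcm7* was 23.7, 30.4 and 21.3 CPM in WT and 40.1, 28.8, 36 and 31.6 CPM in KO 1 to KO 4, with 3 KO-labelled libraries above every WT library and KO replicate 2 below WT replicate 2 (chr5:138605811-138613650, NCBIM37, minus strand). Its log2 fold change was 0.44 (SE 0.177, adjusted p = 0.199 by edgeR's quasi-likelihood test), and 0.15 with the lymphocyte covariate. The exons of *Mcm7* overlap those of other genes over 12.6% of their bases, among them the hairpins of Mir25 and Mir93 on the same strand. *Mcm2* stood at 27.2, 16.6 and 24.4 CPM in WT and 25.4, 9.32, 17.2 and 13.4 CPM in KO 1 to KO 4, and *Mcm5* at 19.1, 7.92 and 19.5 CPM and 20.3, 5.04, 14.2 and 5.97 CPM. In both genes KO replicates 2 and 4 lay below every WT library and KO replicates 1 and 3 did not. *Mcm3*, *Mcm4* and *Mcm6* had log2 fold changes of -0.07, -0.07 and -0.28, with adjusted p-values between 0.355 and 0.937 (edgeR's quasi-likelihood test).

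At the replication fork, *Pcna* encodes the sliding clamp and was the S phase gene of the highest level, 74, 47.2 and 60.2 CPM in WT and 54.6, 40.4, 53.6 and 50.5 CPM in KO 1 to KO 4. Its log2 fold change of -0.28 had an interval of -0.691 to 0.13, and KO replicate 2 alone was below every WT library. *Cdc45* and *Gins2* encode parts of the active helicase and had log2 fold changes of -0.41 and 0.17. For *Gins2*, 67.3% of the exon bases lie under Gse1 on the opposite strand, where reads were not counted for either gene.

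Genes that supply nucleotides had lower means in KO-labelled libraries. *Tyms* encodes thymidylate synthase, which makes the thymidine nucleotide of DNA (chr5:30384742-30400157, NCBIM37, minus strand). *Tyms* was 9.63, 7.54 and 7.73 CPM in WT 1 to WT 3 and 6.74, 4.07, 4.67 and 4.29 CPM in KO 1 to KO 4, with no overlap. The log2 fold change was -0.75 (SE 0.24, interval -1.29 to -0.203), a level 1.68-fold higher in WT. It had an unadjusted p of 0.0127 and an adjusted p of 0.135 in edgeR's quasi-likelihood test, and an exact permutation p of 0.0571. With library size alone as the scale it was -0.36, with an adjusted p of 0.324 in the same test. *Rrm2* and *Rrm1* encode the small and the large subunit of ribonucleotide reductase. *Rrm2* was 16.9, 6.2 and 11.5 CPM in WT and 12.3, 3.22, 7.86 and 4.75 CPM in KO 1 to KO 4, while *Rrm1* was steady, between 16.8 and 23.2 CPM in all libraries. The log2 fold changes were -0.71 for *Rrm2* and -0.09 for *Rrm1*, and neither passed the test.

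**Figure D3:**
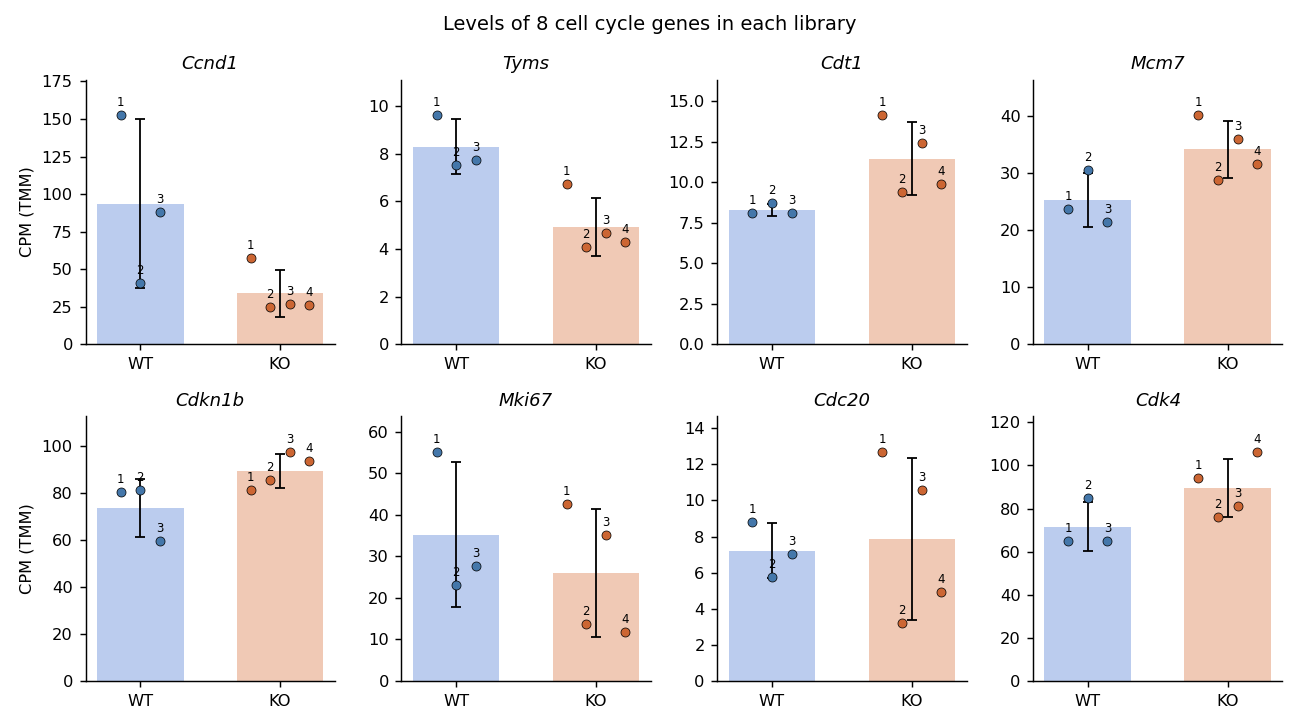
CPM of 8 member genes in each library, with points numbered by replicate, bars for the group mean and error bars for the SD (WT, n = 3; KO-labelled, n = 4), on axes that start at 0. The groups do not overlap in *Tyms*, *Cdt1* and *Cdkn1b*, while *Mki67* and *Cdc20* split the KO-labelled libraries into a high and a low pair.

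The 15 mitosis genes had a median log2 fold change of 0.13, and 12 of them were higher in the mean of the KO-labelled libraries. None had an unadjusted p under 0.05, against 21.4% of all genes, and none had groups that did not overlap, against 18.7% of all genes. The KO-labelled libraries spread widely: the highest exceeded the lowest 3.01-fold in the median mitosis gene, against 1.52-fold among WT libraries. Such a ratio tends to rise with the number of libraries, here 4 KO-labelled and 3 WT. *Cdc20*, the activator of the anaphase-promoting complex, was 8.8, 5.78 and 7.04 CPM in WT and 12.7, 3.22, 10.6 and 4.93 CPM in KO 1 to KO 4. KO replicates 1 and 3 were above all WT libraries and KO replicates 2 and 4 below all of them, so that a mean of 7.21 ± 1.52 CPM in WT and 7.85 ± 4.5 CPM in KO-labelled libraries (SD, n = 3 and 4) described none of the 4.

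The other mitosis genes mostly repeated this split. *Ube2c*, which passes ubiquitin to targets of that complex, had 7.41, 5.04 and 5.14 CPM in WT and 10.8, 3.59, 12.7 and 3.01 CPM in KO 1 to KO 4. *Ccnb1* and *Ccnb2* encode the B-type cyclins of mitosis, and *Ccnb1* stood at 6.02, 3.4 and 3.03 CPM in WT and 8.41, 2.44, 7.19 and 2.77 CPM in KO 1 to KO 4. *Birc5*, the gene of survivin in the chromosomal passenger complex, had 5.87, 4.2 and 4.1 CPM in WT and 9.61, 2.78, 6.88 and 1.97 CPM in KO 1 to KO 4. In each of these genes KO replicates 1 and 3 were above every WT library and KO replicates 2 and 4 below every one. Over the 15 genes, KO replicate 1 exceeded every WT library in 13 and KO replicate 3 in 11, where 31.1% and 33.0% of all genes did so. KO replicate 2 was below every WT library in 14 and KO replicate 4 in 14, where 28.0% and 30.2% of all genes were.

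The kinases of mitosis also had higher levels in KO replicates 1 and 3 than in KO replicates 2 and 4. *Plk1*, the gene of Polo-like kinase, was 6.81, 3.19 and 4.67 CPM in WT and 8.97, 2.51, 6.22 and 2.88 CPM in KO 1 to KO 4, where KO replicate 3 lay inside the WT range. *Aurka*, whose product builds the spindle poles, had a log2 fold change of 0.00 (interval -0.834 to 0.841), and *Aurkb*, the kinase of the passenger complex, 0.08 (interval -0.822 to 0.981). *Cdk1*, the kinase that starts mitosis, was the mitosis gene with the lowest fold change, -0.51 on the log2 scale. Its levels were 13, 5.24 and 7.52 CPM in WT and 9.1, 3.34, 7.74 and 3.84 CPM in KO 1 to KO 4, and neither KO replicate 1 nor 3 was above WT replicate 1. Among the motor and spindle genes, *Kif11* lay between 3.07 and 10.6 CPM, *Cenpe* between 2.24 and 6.73 CPM and *Tpx2* between 2.85 and 13.2 CPM.

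The checkpoint kinase gene *Bub1* was the lowest mitosis gene and the most even in WT, with 1.99, 2.03 and 2.08 CPM, beside 2.5, 1.77, 2.29 and 0.854 CPM in KO 1 to KO 4. Its relative *Bub1b*, which encodes BUBR1, had 8.01, 7.54 and 8.71 CPM in WT and 15.6, 9.16, 12.4 and 7.28 CPM in KO 1 to KO 4, with 3 KO-labelled libraries above every WT library. At 0.46 (interval -0.15 to 1.06, adjusted p = 0.365 by edgeR's quasi-likelihood test) it had the highest log2 fold change of the mitosis genes. *Ncapd2*, a condensin subunit and the mitosis gene of the highest level, was 20.6, 23.2 and 24.8 CPM in WT and 41.7, 15.7, 28.6 and 25 CPM in KO 1 to KO 4. KO replicate 1 stood apart there at the upper end and KO replicate 2 at the lower.

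Set against each other, S phase genes had the lower and mitosis genes the higher fold change, with a difference of medians of -0.41 on the log2 scale. This difference turned to 0.34 with lymphocyte markers as a covariate in the fit and to 0.11 with KO replicates 2 and 4 alone. It was -0.06 without KO replicate 1. The covariate could not be cleanly separated from the label, as the marker sums of the labels did not overlap. KO replicates 2 and 4 were chosen after their low levels had been seen, so neither setting tests the difference. Per library, relative to the WT mean, the S phase median was 0.29, -0.38 and 0.10 in WT 1 to WT 3 and 0.19, -0.62, 0.04 and -0.49 in KO 1 to KO 4. The mitosis median was 0.36, -0.28 and -0.02 in WT and 0.86, -0.68, 0.56 and -0.74 in KO 1 to KO 4. The S phase median minus the mitosis median was -0.68 and -0.52 in KO replicates 1 and 3 and 0.06 and 0.25 in KO replicates 2 and 4. In WT 1 to WT 3 this difference was -0.07, -0.09 and 0.13, so the KO-labelled libraries lay on both sides of the WT libraries.

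The same libraries had the highest level of lymphocyte markers. In all 15 mitosis genes and in 13 of the 14 S phase genes KO replicates 1 and 3 both exceeded KO replicates 2 and 4, as 17.0% of all genes tested did. Over all 46 members this held for 38. The B-cell gene *Cd79a* was at most 0.834 CPM in WT and 54.9, 1.96, 73.1 and 17.1 CPM in KO 1 to KO 4, and *Ptprc*, the gene of the leukocyte protein CD45, stood at 102, 32.3, 139 and 29.5 CPM there. KO replicate 4 had more lymphocyte marker signal than KO replicate 2 and a mitosis median that was lower by a small margin. The part of lymphocytes in the levels of the members was not tested, but values without these libraries were computed. KO replicates 2 and 4 were set alone against WT after their low levels had been seen. The direction, the p-values and the lack of overlap there follow from this choice. With these 2 libraries the median was -0.55 for S phase and -0.66 for mitosis genes. Of the 46 members, 17 had an unadjusted p under 0.05, against 12.5% of all genes. In that subset the groups did not overlap in 28 of the 46 members, against 31.5% of all genes, and no gene passed the test. With the mean level of lymphocyte markers as a covariate in the fit, the medians were -0.87 and -1.21. There 21 of the 46 members had an unadjusted p under 0.05, all lower, against 8.55% of all genes. No gene passed the test in that fit, where the lowest adjusted p of any gene was 0.326 (edgeR's quasi-likelihood test). The marker sums of the labels did not overlap, 30.3 to 44.6 CPM in WT and 53.7 to 498 CPM in KO-labelled libraries. The fit could thus not cleanly separate the markers from the label.

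**Figure D4:**
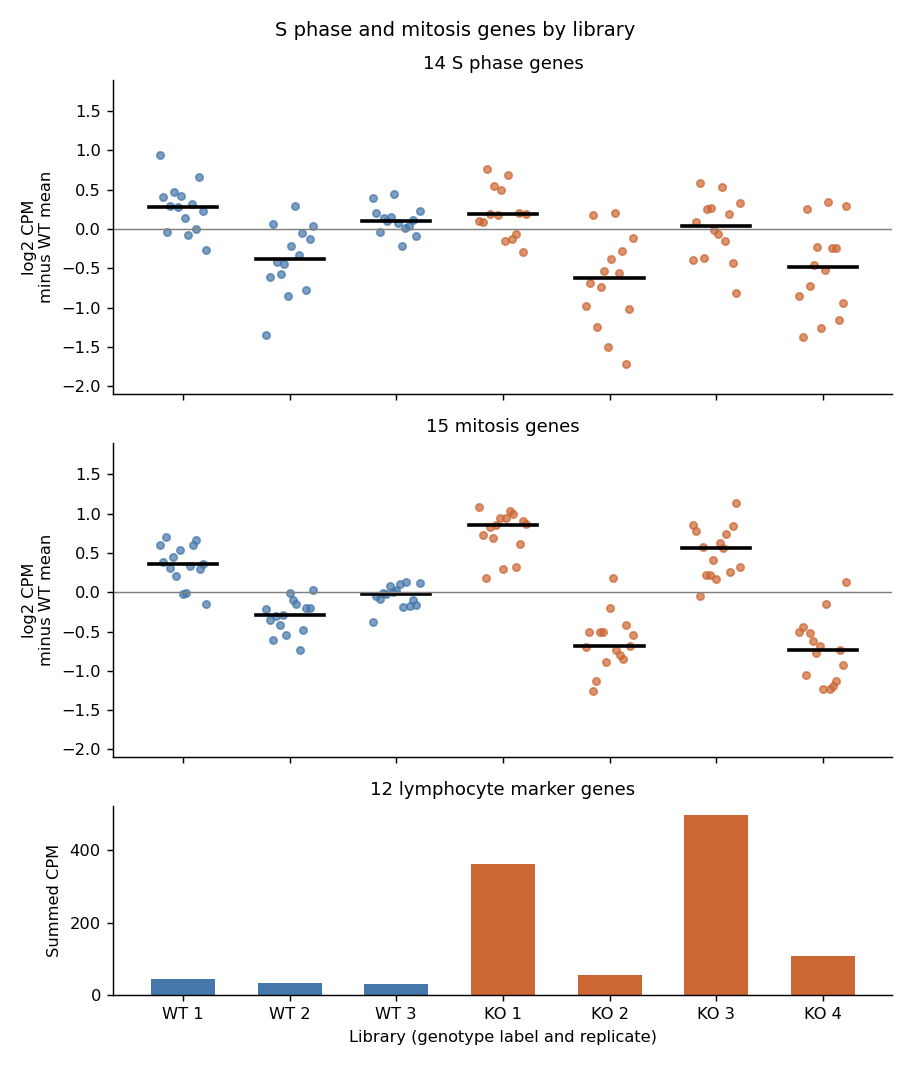
Level of each of the 14 S phase genes (top) and 15 mitosis genes (middle) in each library, as log2 CPM minus the mean of the 3 WT libraries, with black bars at the median, and the summed CPM of 12 lymphocyte markers (bottom). The mitosis medians of 0.86 and 0.56 in KO replicates 1 and 3 stand beside the highest marker sums, 363 and 498 CPM. The other libraries do not follow this order. WT replicate 1 has a median of 0.36 at 44.6 CPM, and KO replicates 2 and 4 have -0.68 and -0.74 at 53.7 and 106 CPM.

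The sign of the mitosis median depended on single libraries. It was -0.26 without KO replicate 1, -0.03 without KO replicate 3 and -0.01 without WT replicate 2, against 0.13 with all 7. Within lane 4, which sets KO replicates 3 and 4 against WT replicate 2 and allows no test, it was 0.26, and the S phase median was 0.14 and thus of the other sign. Scaling by library size alone, which moves the median of all genes from 0.05 to 0.42, gave 0.11 for S phase and 0.56 for mitosis genes, so that relative to all genes the S phase genes were still lower and the mitosis genes higher. The count of members with an unadjusted p under 0.05 was 0 without WT replicate 1 (12.2% of all genes), 8 without WT replicate 2 (25.1%), 2 without WT replicate 3 (14.5%) and 2 without KO replicate 3 (14.8%).

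S phase and mitosis genes also differed in the sequence of their promoters, which the choice of genes had not used. Promoter windows from 250 bases before to 50 bases after the start were found in RefSeq (GRCm38.p6) for 36 of the 46 members, among them 12 S phase and 13 mitosis genes. They were searched on both strands for the CCAAT box (letters CCAAT, bound by NF-Y), the cell cycle genes homology region or CHR (letters TTTGAA, bound by MuvB complexes) and an E2F-like motif (letters TTTNNCGC), and a gene with several windows counted once if any held a match. A CHR was in 9 of the 13 mitosis genes (69.2%) and in 2 of the 12 S phase genes (16.7%), against 14.7% of all tested genes with a window. All 9 also held a CCAAT box, and 7.12% of all tested genes held both. The E2F-like motif was in 7 of the 12 S phase genes (58.3%) and 2 of the 13 mitosis genes (15.4%), against 9.18% of tested genes. A CCAAT box was in 9 S phase genes (75%) and 12 mitosis genes (92.3%), against 42.2% of tested genes. Matches to the CCAAT box and the E2F-like motif can overlap, as in *Mcm7*. A match describes the letters and not a bound site.

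**Figure D5:**
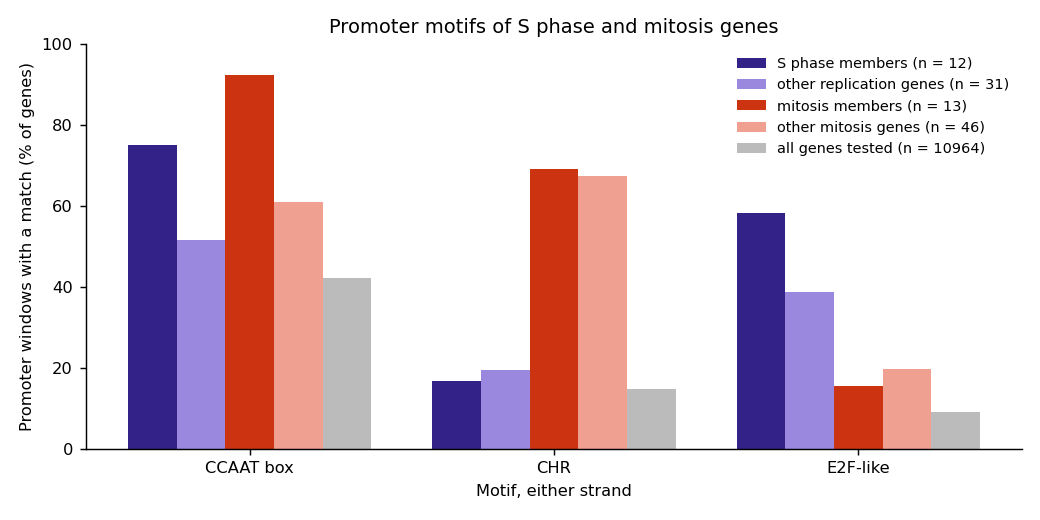
Share of genes whose RefSeq promoter window holds a CCAAT box, a CHR or an E2F-like motif on either strand, for S phase and mitosis members, the other replication and mitosis genes listed for comparison, and all tested genes. The CHR marks 69.2% of mitosis members and 67.4% of other mitosis genes, and the E2F-like motif 58.3% of S phase members and 38.7% of other replication genes.

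The windows of 3 S phase genes with an unadjusted p under 0.05 and of 3 mitosis genes that split the KO-labelled libraries are shown to compare the motifs. Sequences are the RefSeq reference, 5′ to 3′ in the direction of the gene, with matches to any of the 3 motifs on either strand in capitals. The windows lie at chr8:122567765-122568064, plus strand (*Cdt1*), chr5:138171834-138172133, minus strand (*Mcm7*), chr5:30073576-30073875, minus strand (*Tyms*), chr4:118437294-118437593, minus strand (*Cdc20*), chr7:122159185-122159484, plus strand (*Plk1*) and chr9:70421505-70421804, minus strand (*Ccnb2*), all in GRCm38.p6.
*Cdt1*: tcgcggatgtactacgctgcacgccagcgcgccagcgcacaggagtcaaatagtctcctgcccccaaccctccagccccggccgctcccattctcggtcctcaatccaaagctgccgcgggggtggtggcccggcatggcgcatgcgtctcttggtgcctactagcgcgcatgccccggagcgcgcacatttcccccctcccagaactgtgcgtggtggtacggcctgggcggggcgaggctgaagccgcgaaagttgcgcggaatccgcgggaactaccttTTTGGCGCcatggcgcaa
*Mcm7*: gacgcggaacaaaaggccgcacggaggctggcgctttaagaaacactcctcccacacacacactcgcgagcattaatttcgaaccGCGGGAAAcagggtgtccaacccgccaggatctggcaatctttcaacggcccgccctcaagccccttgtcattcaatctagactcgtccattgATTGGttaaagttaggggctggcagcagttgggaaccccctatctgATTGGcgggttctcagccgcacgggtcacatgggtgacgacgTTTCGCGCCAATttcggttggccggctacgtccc
*Tyms*: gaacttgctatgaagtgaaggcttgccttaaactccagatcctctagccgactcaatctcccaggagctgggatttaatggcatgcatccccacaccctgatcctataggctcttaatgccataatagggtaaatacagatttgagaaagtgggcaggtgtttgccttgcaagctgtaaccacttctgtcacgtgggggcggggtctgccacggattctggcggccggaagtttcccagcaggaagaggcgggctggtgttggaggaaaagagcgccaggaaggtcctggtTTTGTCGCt
*Cdc20*: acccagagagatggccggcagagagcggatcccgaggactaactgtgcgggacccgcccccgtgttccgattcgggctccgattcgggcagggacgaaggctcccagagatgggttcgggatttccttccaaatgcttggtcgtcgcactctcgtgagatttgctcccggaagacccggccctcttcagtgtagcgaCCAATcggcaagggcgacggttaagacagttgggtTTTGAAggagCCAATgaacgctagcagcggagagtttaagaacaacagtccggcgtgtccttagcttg
*Plk1*: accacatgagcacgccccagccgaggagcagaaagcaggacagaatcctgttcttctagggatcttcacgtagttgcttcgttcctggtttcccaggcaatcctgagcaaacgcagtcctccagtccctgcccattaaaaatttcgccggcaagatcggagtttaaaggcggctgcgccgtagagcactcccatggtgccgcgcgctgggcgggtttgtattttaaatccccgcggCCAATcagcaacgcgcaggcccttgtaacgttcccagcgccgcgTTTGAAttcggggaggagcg
*Ccnb2*: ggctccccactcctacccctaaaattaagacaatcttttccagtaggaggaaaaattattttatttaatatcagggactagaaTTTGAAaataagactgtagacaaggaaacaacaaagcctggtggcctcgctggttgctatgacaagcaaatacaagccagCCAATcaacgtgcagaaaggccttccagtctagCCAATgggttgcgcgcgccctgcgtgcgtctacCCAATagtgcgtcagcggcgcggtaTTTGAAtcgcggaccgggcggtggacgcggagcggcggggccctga
In *Cdt1* the E2F-like match begins 33 bases and in *Tyms* 42 bases after the start, and neither window holds another match. *Mcm7* has one 165 bases before the start and another beginning at base 17 after it, which runs into a CCAAT box. In *Cdc20* the CHR begins 18 bases before the start, between CCAAT boxes at 53 and 8 bases before it. *Plk1* has its CCAAT box 14 bases before and its CHR 31 bases after the start, and *Ccnb2* has CCAAT boxes 87, 54 and 21 bases before the start and a CHR both 167 bases before and 5 bases after it. A second RefSeq window of *Mcm7*, not shown, holds a CCAAT box 47 bases before its start.

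Of 41 other replication genes, 12 were higher and 29 lower in KO-labelled libraries, with a median log2 fold change of -0.22. An unadjusted p under 0.05 was reached by 1 in the higher and 6 in the lower direction. Together these were 17.1% of the list, below the 21.4% of all genes. *Clspn*, the gene of claspin, which passes signals from stalled forks to CHEK1, was 16.6, 7.09 and 9.45 CPM in WT and 5.87, 3.66, 3.34 and 1.57 CPM in KO 1 to KO 4, with no overlap (log2 fold change -1.61, adjusted p = 0.0972 by edgeR's quasi-likelihood test). *Fen1*, the flap endonuclease, and *Pold2*, a polymerase subunit, had log2 fold changes of -1.17 and -0.90. DESeq2 called 1 of the 41 genes of this list, against 3.33% of all genes.

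Of 59 other mitosis genes, 35 were higher and 24 lower, with a median of 0.03. In 56 of them KO replicates 1 and 3 both exceeded KO replicates 2 and 4, as in all 15 members and in 17.0% of all genes tested. KO replicate 1 was above every WT library in 39 and KO replicate 3 in 32. The exceptions to the even mean were few: *Cdc25b*, a phosphatase that activates CDK1, alone had an unadjusted p under 0.05, which is 1.69% of the list against 21.4% of all genes. It was 7.33, 7.18 and 8.59 CPM in WT and 11.3, 9.62, 14.3 and 10.8 CPM in KO 1 to KO 4 (adjusted p = 0.147 by edgeR's quasi-likelihood test). *Cenpa*, the centromeric histone, and *Ndc80*, of the kinetochore, had log2 fold changes of 0.72 and 0.76.

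Checkpoint genes were mostly lower, with a median of -0.45 over 8 genes. Of these, 4 had an unadjusted p under 0.05 in the lower and 1 in the higher direction, beside 10.7% of all genes in each direction. *Cdc25a*, the phosphatase that frees CDK2, was 48.1, 33.8 and 38.3 CPM in WT and 25.4, 18.4, 22.3 and 28.8 CPM in KO 1 to KO 4, with no overlap (log2 fold change -0.76, SE 0.19, adjusted p = 0.089 by edgeR's quasi-likelihood test). Unlike the mitosis genes, all 4 KO-labelled libraries lay below the lowest WT library. *Chek1* and *Wee1*, kinases that delay entry into mitosis, had log2 fold changes of -1.07 and -0.69 with adjusted p-values of 0.162 and 0.175 in the same test.

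The RB, E2F and DREAM genes, 17 in number, had a median of 0.03. *Tfdp1* and *Tfdp2* encode the DNA-binding partners of E2F factors and differed in direction, at -0.52 and 0.44 on the log2 scale. *Rb1* was 37, 98 and 48.7 CPM in WT and 54.1, 155, 143 and 119 CPM in KO 1 to KO 4, a log2 fold change of 0.94 (adjusted p = 0.234 by edgeR's quasi-likelihood test). The 4 other CDK inhibitors had a median of 0.47, and none reached an unadjusted p under 0.05, against 21.4% of all genes. *Cdkn2a* was at most 0.77 CPM in any library, and *Cdkn2b* and *Cdkn2d* had log2 fold changes of 0.54 and 0.39.

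Targets of p53 other than *Cdkn1a* had a median of 0.08 over 19 genes. Of these, 6 had an unadjusted p under 0.05 in the higher and 2 in the lower direction, beside 10.7% of all genes in each direction. *Btg2*, an antiproliferative gene, was 43.8, 86.8 and 27.4 CPM in WT and 146, 106, 169 and 123 CPM in KO 1 to KO 4, with every KO-labelled library above every WT library (log2 fold change 1.37, SE 0.363, adjusted p = 0.0953 by edgeR's quasi-likelihood test). *Trp53inp1*, another such gene, was 34.8, 72.4 and 43.4 CPM in WT and 85, 85.1, 229.6 and 129.6 CPM in KO 1 to KO 4. *Gdf15*, which encodes a stress cytokine, was low, at 0.376, 0.506 and 0.119 CPM in WT and 1.43, 1.75, 1.31 and 1.41 CPM in KO 1 to KO 4. None of the 19 passed the quasi-likelihood test. edgeR's exact test called 1 of the 19, against 2.48% of all genes, and DESeq2 called 3, against 3.33%.

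Per length of exon, the members covered a range from 0.426 to 35.5 RPKM in the mean of all libraries. The G1 genes *Ccnd3* and *Cdk4* stood at the upper end: *Ccnd3* had 35 ± 3.33 RPKM in WT and 35.8 ± 2.91 RPKM in KO-labelled libraries (SD, n = 3 and 4), and *Cdk4* had 22 ± 3.52 RPKM in WT and 27.5 ± 4.17 RPKM in KO-labelled libraries. *Pcna* followed with 25.2 ± 5.58 RPKM in WT and 20.7 ± 2.7 RPKM in KO-labelled libraries, and *Cdkn1b* with 16.2 ± 2.7 RPKM in WT and 19.7 ± 1.61 RPKM in KO-labelled libraries. Markers of active division were lower, at 2.96 RPKM for *Mki67* and 1.80 RPKM for *Top2a* in the mean of all libraries, and the mitosis genes lay between 0.443 (*Bub1*) and 5.68 RPKM (*Ncapd2*).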

How the data were processed

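Total RNA of mammary glands at L1 was sequenced in 3 WT and 4 *Tardbp* KO-labelled libraries. The study gives these as 3 and 4 mice, so p-values measure the spread between mice. Per the file headers and methods, the authors prepared Illumina TruSeq libraries, mapped paired-end reads with STAR to NCBIM37 (version 2.5.2a in the submitters' processing notes, another in the methods) and deposited whole-number counts per gene from featureCounts 1.4.6-p5 with GENCODE vM1, without strand or pair options. Each mate was therefore counted on its own, and reads that mapped to several places or to several genes were left out. The deposited gene length, in bases, served only for RPKM.

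After removal of 37 mitochondrial and 580 ribosomal genes, those with 5 or more counts in 4 of 7 libraries were kept (17175). edgeR 4.0.16 in R 4.3.3 with TMM and the quasi-likelihood test compared the labels (common dispersion 0.0921, prior degrees of freedom 3.91), with the study's limits for a call (adjusted p under 0.01, log2 fold change beyond 1). For single genes, log2(CPM + 1) was compared by an exact permutation test (2-sided). Scripts were tested on simulated data. Counting error is included in the SD and was not separated. Members and lists were chosen with earlier results of these data known. Named genes are all members, the 3 genes of smallest unadjusted p in each other cell cycle list, the most abundant marker of a list or one a result turns on, and *Tardbp*. Marker lists covered luminal epithelium, milk proteins, myoepithelium, lymphocytes, germinal centre B cells, plasma cells, myeloid cells, endothelium, fibroblasts, adipocytes and skeletal muscle. A further marker gene is not reported here. The alternatives were other scalings, filters, tests and limits, a replicate block, a lymphocyte covariate and leaving out libraries, and DESeq2 1.42.0 was one of them. The command line in the file lists 1 further library without a column.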

Additional observations from a re-analysis of the deposited data

Results flagged for a closer look

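In the 4 KO-labelled libraries, 3 of the 46 genes had 1 library far from the other 3 by Dixon's test, and each time it was KO replicate 1, the highest. *Ccnd1* stood at 57.5 CPM there, against 24.9, 26.7 and 26.1 CPM in KO replicates 2 to 4. *E2f1* stood at 20.1 CPM, against 9.04, 10.1 and 10.7 CPM, and *Mybl2* at 7.25 CPM, against 3.43, 3.83 and 3.79 CPM. Chance alone marks about 1 in 20 groups, and the genes are not independent of each other. KO replicate 1 also held the second highest sum of lymphocyte markers, 363 CPM, and the highest sum of myoepithelial markers, 3144 CPM against 1075 to 1286 CPM in the other KO-labelled libraries and 1217 to 2104 CPM in WT, and their part in these values was not tested.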

How the results depend on the processing

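The quasi-likelihood test called 0 genes under each scaling, filter on low counts and left-out library, except 1 gene with no filter and 1 gene at an adjusted p under 0.05. edgeR's exact test called 426 genes, its likelihood ratio test 464 and DESeq2 572, and no alternative called a member. The lowest adjusted p of *Ccnd1* was 0.0162, in DESeq2. The count of members with an unadjusted p under 0.05 was 7 with library size alone as the scale (33.8% of all genes), 21 with the lymphocyte covariate (8.55%) and 17 with KO replicates 2 and 4 alone (12.5%). Members without overlap numbered 5 (28.3% of all genes) with library size alone and 28 (31.5%) with KO replicates 2 and 4 alone. That last alternative was chosen after the low levels of the members there had been seen, so its counts follow from the choice. With the covariate the lowest adjusted p of any gene was 0.326 in edgeR's quasi-likelihood test. Leaving out 1 library at a time gave 0 to 8 members with an unadjusted p under 0.05 (12.2% to 25.1% of all genes) and 2 to 13 without overlap (20.6% to 36.8%). The S phase median was 0.11 with library size alone, -0.87 with the covariate and 0.14 within lane 4, and it ranged from -0.41 to -0.16 over the left-out libraries. The mitosis median was -1.21 with the covariate and -0.66 with KO replicates 2 and 4 alone, and ranged from -0.26 to 0.37. Their difference was 0.34 and 0.11 under these 2 settings and ranged from -0.57 to -0.06. The cause of these shifts was not tested. Members had 31 counts or more in every library.

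The numbers in the labels were not taken as a pairing. Deviations of WT and KO replicates with the same number correlated at r = 0.333, 0.0966 and -0.0557, and those with different numbers at -0.369 to 0.234. So few libraries cannot decide whether the samples were paired. With a replicate block no gene was called, 6 members had an unadjusted p under 0.05 (24.6% of all genes), the medians were -0.18 for S phase and 0.22 for mitosis genes with a difference of -0.40, and the adjusted p of *Ccnd1* was 0.0395 in edgeR's quasi-likelihood test. Under this replicate block 6 log2 fold changes changed sign, *Top2a* 0.058, *Ccna2* 0.019, *Cdk6* 0.11, *Foxm1* 0.032, *Mcm3* 0.023 and *Bub1* 0.090.

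The direction was the same under every alternative in 8 members (*Ccnd1*, *Cdk4*, *Cdkn1b*, *Cdt1*, *Mcm2*, *Mcm7*, *Rrm2* and *Tyms*). In the other 38 the log2 fold change took the other sign at least once. With library size alone these were *Top2a* 0.26, *Ccna2* 0.32, *Cdk6* 0.37, *Cdk2* 0.34, *Cdkn1c* 0.15, *Foxm1* 0.39, *Mybl2* 0.18, *Cdc45* 0.0034, *Mcm3* 0.34, *Mcm4* 0.32, *Mcm6* 0.11, *Pcna* 0.11, *Rrm1* 0.29, *Bub1* 0.26 and *Kif11* 0.14. With the lymphocyte covariate they were *Ccnd2* -0.31, *Cdkn1a* -0.32, *E2f1* -0.46, *Gins2* -0.032, *Ccnb1* -1.21, *Ccnb2* -0.92, *Cdc20* -1.46, *Aurka* -0.89, *Aurkb* -0.90, *Plk1* -1.35, *Bub1b* -0.087, *Birc5* -1.32, *Tpx2* -1.49, *Cenpe* -0.90, *Ube2c* -1.28 and *Ncapd2* -0.55, with KO replicates 2 and 4 alone *Ccnd2* -0.23, *E2f1* -0.24, *Ccnb1* -0.66, *Ccnb2* -0.51, *Cdc20* -0.82, *Aurka* -0.60, *Aurkb* -0.65, *Plk1* -0.85, *Birc5* -0.98, *Tpx2* -1.08, *Cenpe* -0.58, *Ube2c* -0.82 and *Ncapd2* -0.17, and within lane 4 *Top2a* 0.13, *Ccna2* 0.13, *Ccne1* 0.37, *Ccne2* 0.59, *Cdkn1c* 0.034, *Foxm1* 0.17, *Cdc6* 0.72, *Mcm3* 0.47, *Mcm4* 0.46, *Mcm5* 0.22, *Pcna* 0.14, *Rrm1* 0.016, *Cdk1* 0.056, *Birc5* -0.19 and *Kif11* 0.053. With DESeq2's size factors and with its Wald test it was *Aurka* -0.015, and with the upper quartile *Foxm1* 0.0052, and with at least 10 counts in every library *Foxm1* 0.0072. Over the left-out libraries the ranges were *Mki67* -0.79 to 0.030, *Top2a* -0.48 to 0.31, *Ccna2* -0.51 to 0.19, *Ccnd3* -0.045 to 0.089, *Cdk6* -0.12 to 0.090, *Foxm1* -0.47 to 0.22, *Mcm3* -0.31 to 0.19, *Mcm4* -0.27 to 0.066, *Kif11* -0.52 to 0.11, *Ccnd2* -0.068 to 0.46, *E2f1* -0.23 to 0.23, *Cdc20* -0.20 to 0.38, *Aurka* -0.30 to 0.25, *Aurkb* -0.31 to 0.26, *Plk1* -0.33 to 0.39, *Tpx2* -0.26 to 0.46, *Birc5* -0.28 to 0.42, *Cenpe* -0.077 to 0.40, *Ube2c* -0.011 to 0.60 and *Bub1* -0.31 to 0.083.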

Other observations

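Markers of the other cell types of the gland give the setting of the members' values. Summed over 8 markers each, luminal epithelium lay between 2723 and 3512 CPM in WT and between 2828 and 4091 CPM in KO-labelled libraries, and myoepithelium between 1217 and 2104 CPM and between 1075 and 3144 CPM. The 7 milk protein genes summed to between 309100 and 460000 CPM in WT and to between 111600 and 212200 CPM in KO-labelled libraries, so no library of one label reached the other. Myeloid markers (7 genes) lay between 218 and 299 CPM in WT and between 190 and 516 CPM in KO-labelled libraries, with the lowest value in KO replicate 4. Endothelium (6 genes) lay between 284 and 396 CPM and between 260.3 and 476 CPM, fibroblasts (6 genes) between 972 and 2739 CPM and between 675 and 2938 CPM, and adipocytes (6 genes) between 1385 and 2270 CPM and between 1524 and 3924 CPM. The 4 germinal centre genes summed to between 26.8 and 37.5 CPM in WT and to between 35.5 and 50.03 CPM in KO-labelled libraries, nearly all of it from *S1pr2*. Of 4 plasma cell genes, 3 were found in the annotation, with sums of 43.0 to 66.3 CPM and 33.5 to 79.5 CPM. Within these sums *Igj* was 18.6, 25.0 and 10.1 CPM in WT and 34.3, 50.4, 72.9 and 20.6 CPM in KO 1 to KO 4. *Derl3* went the other way, at 46.9, 17.7 and 56.1 CPM in WT and 6.05, 9.92, 6.33 and 12.8 CPM in KO 1 to KO 4. *Tnfrsf17* was at most 0.369 CPM. Skeletal muscle (5 genes) stayed at or below 4.78 CPM. No marker was at 0 in every library.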
